A study of Caenorhabditis elegans with 139 samples.

Results

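The first and last labelled stages of Caenorhabditis elegans embryogenesis were compared in 14 of the 139 single embryos of a developmental time course. The embryos were chosen by labelled time alone. The late group holds 6 embryos labelled 790, 800, 810, 820, 830 and 840 min after the 4-cell stage, called late embryos here. The early group holds 8 embryos labelled -50, -30, 0 and 10 min, 5 of them at 0 min, called early embryos here. Each library held the messenger RNA of 1 embryo, measured by CEL-Seq, a method that barcodes the RNA of each embryo, copies it linearly and reads transcript 3′ ends. Per the labels the embryos were cut out of adult worms, washed in bleach, collected at the 4-cell stage and incubated until frozen. How the embryos labelled before the 4-cell stage were collected, and the strain, are not given in the sources used here. No group received a treatment that the labels name.

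A C. elegans embryo begins with RNA and protein that its mother placed in the oocyte. RNA-binding proteins of that maternal stock hold back or release the translation of other maternal RNAs and so separate the germ line from the body lineages. Transcription from the embryo's own genome starts after the opening cleavages, and maternal RNA is then degraded. By the end of embryogenesis the animal is a folded larva that moves inside its eggshell, with contracting body wall and pharyngeal muscle, a gut with microvilli, wired neurons and a collagen cuticle, and nearly all of its cells have stopped dividing.

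Gene counts per embryo ran from 173574 to 1306826 in late embryos and from 30049 to 2360636 in early embryos, where the embryos of numbers 97 and 71, both labelled 0 min, held 30049 and 91306. Replicates here are separate embryos, and the 43 pairs of embryos within a group differed by a chi-square per degree of freedom of at least 12.3 (late) and 5.14 (early), so none was counted as a repeat of another. Expression profiles were likened by Pearson's r of log2(CPM + 10) over 6205 genes, where CPM is the count of a gene scaled to a gene total of 1e6 counts in its embryo. The 790 min embryo stood apart: its r with the other late embryos was 0.53 to 0.62, against 0.83 to 0.88 among those 5, and its r with early embryos was 0.26 to 0.38, against -0.02 to 0.17 for the other late embryos. That embryo also had the smallest count of the late group, and 75.5% of its reads did not align, against 54.6% to 59.7% in the other late embryos and 23.8% to 58.4% in early embryos. The counts over all genes are therefore given with and without it, and so is each count over a gene list that leaving it out moved by more than 1.5 times. List counts of 5 or more that leaving out another single embryo moved that far are given too, and list counts under 5 often moved with any one embryo.

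**Figure D1:**
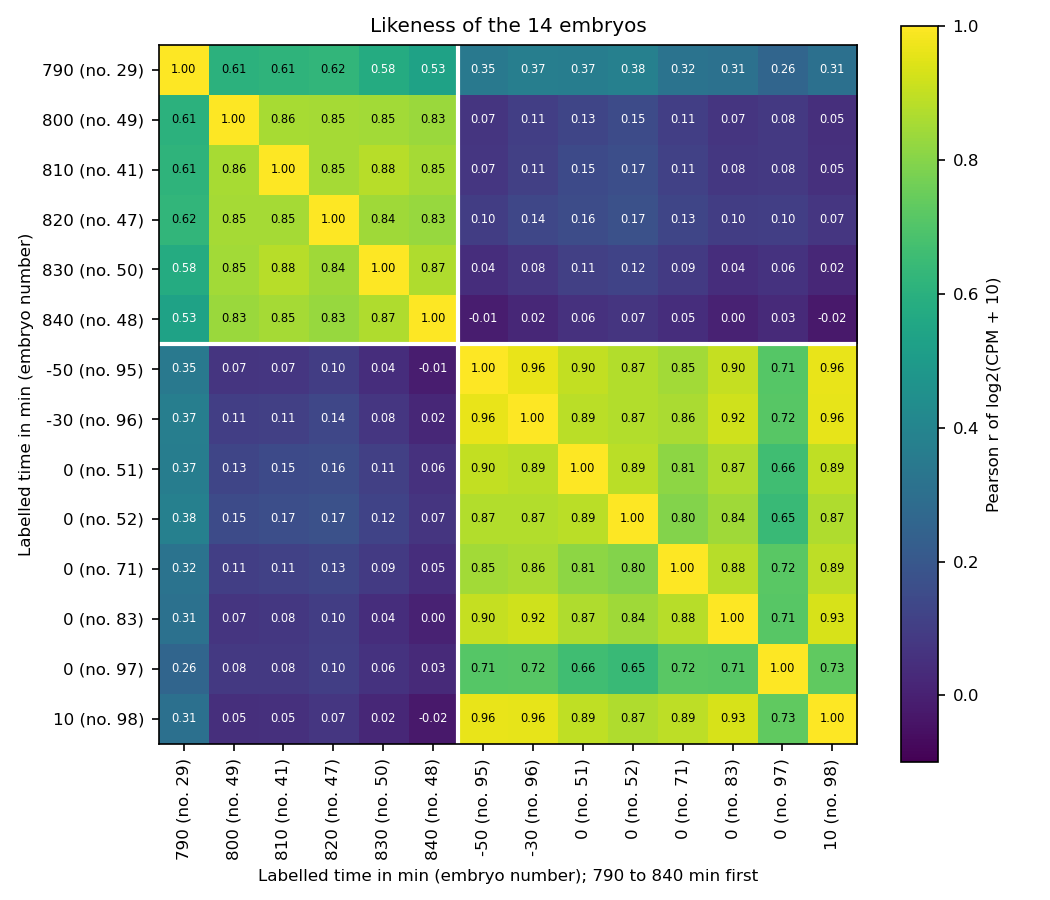
Pearson correlation of log2(CPM + 10) between the 14 embryos over 6205 genes, with the 790 to 840 min embryos first and the white lines between the groups. Late embryos other than the 790 min embryo correlate at 0.83 to 0.88 with each other, and the 790 min embryo at 0.53 to 0.62 with them.

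All 6 late embryos have sample numbers from 1 to 50, and all 8 early embryos have numbers above 50 (51, 52, 71, 83 and 95 to 98). The labels name no batch, but numbers fall into 5 blocks (1 to 50, 51 to 70, 71 to 82, 83 to 94 and 95 to 139), in each of which but the opening one labelled times run in order from 0 min or before. Stage and block of numbers cannot be told apart between these groups. As the nearest look within a block, the late embryos were also set against the 3 embryos of numbers 1 to 50 labelled 30, 80 and 90 min, which are older than the early embryos. Ribosomal protein RNAs took 4.00%, 8.73% and 7.80% of counts in those 3 embryos, and yolk RNAs 1.35%, 2.26% and 1.64%. Early embryos held at most 2.74% and 0.157%, and the medians of all embryos at 20 to 100 min were 2.73% and 0.115%. What sets these 3 embryos apart was not tested, so a smaller difference within numbers 1 to 50 is not a plain contrast of stage. Markers of adult yolk, of sperm and of the oocyte and 1-cell embryo differed between the groups. The 6 adult yolk protein genes summed to 8530 to 50710 CPM in late embryos (50710 CPM at 790 min, 8530 to 17056 CPM in the other late embryos) and 33.3 to 1566 CPM in early embryos. The 36 sperm genes, in an embryo that makes no sperm, summed to 89.0 to 553 CPM in late embryos and 0 to 35.9 CPM in early embryos. None of these passed the filter on low counts. In the 3 embryos of numbers 1 to 50 labelled 30 to 90 min the sperm genes summed to 106 to 357 CPM. Yolk genes summed to 13504 to 22574 CPM there, so both were above the early embryos in that block at 30 to 90 min too. The summed level of 9 oocyte and 1-cell markers was 863 to 2202 CPM in late embryos other than the 790 min embryo, 6994 CPM in that embryo and 10175 to 24049 CPM in early embryos. Whether any of this RNA came from outside the embryos, and its part in the results, was not tested.

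Of 6113 genes tested with edgeR's quasi-likelihood test, 1458 (23.9%) were higher and 1535 (25.1%) lower in late embryos, 49% in all. A call needed a fold of 2 or more with a Benjamini-Hochberg adjusted p below 0.05. Those percentages are the background against which each group of genes below is read. Without the 790 min embryo 6829 genes could be tested, and 2400 (35.1%) were higher and 1108 (16.2%) lower. A call was counted as held when it kept its direction under 4 ways of scaling (TMM, relative log expression, total counts and upper quartile) and without the 790 min embryo, which left 1108 genes (18.1%) higher and 907 (14.8%) lower. Against the 3 embryos of numbers 1 to 50 labelled 30 to 90 min, 7143 genes were tested, and 1051 (14.7%) were higher and 560 (7.84%) lower in late embryos. All 1458 genes called higher were tested there, where 562 were again called higher and 1 was called lower. Of the 1282 genes called lower that were tested there, 333 were again called lower. A gene was tested when at least 6 embryos had about 10 counts or more at a library of median size. A gene absent at the start thus passed only through late embryos and could differ in 1 direction only, so the counts of tissue genes below describe the genes that passed and not every gene of a list. Genes called in neither direction numbered 3120, and for only 141 genes did the 95% interval of the log2 fold change lie within 1 of 0.

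The scaling sets where 0 lies. The median log2 fold change (late minus early) of all genes tested was -0.38 with TMM, 0.06 with relative log expression, -0.50 with upper quartile factors, -1.38 with total counts and -1.84 when the added spike-in RNAs set the scale. Calls were 1702 higher and 991 lower with relative log expression, and 1108 higher and 3042 lower with total counts. A TMM fold change lies 1.02 (median, log2) above the ratio of CPM values. The log2 fold changes below are on the TMM scale, and per-embryo values are plain CPM. Folds given as a bound and ratios of summed levels are ratios of plain CPM. On the TMM scale such rises would be larger and such falls smaller. A total of 122 genes had counts in all 6 late embryos and none in any early embryo, and 21 genes had counts in all 8 early embryos and none in any late embryo.

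**Figure D2:**
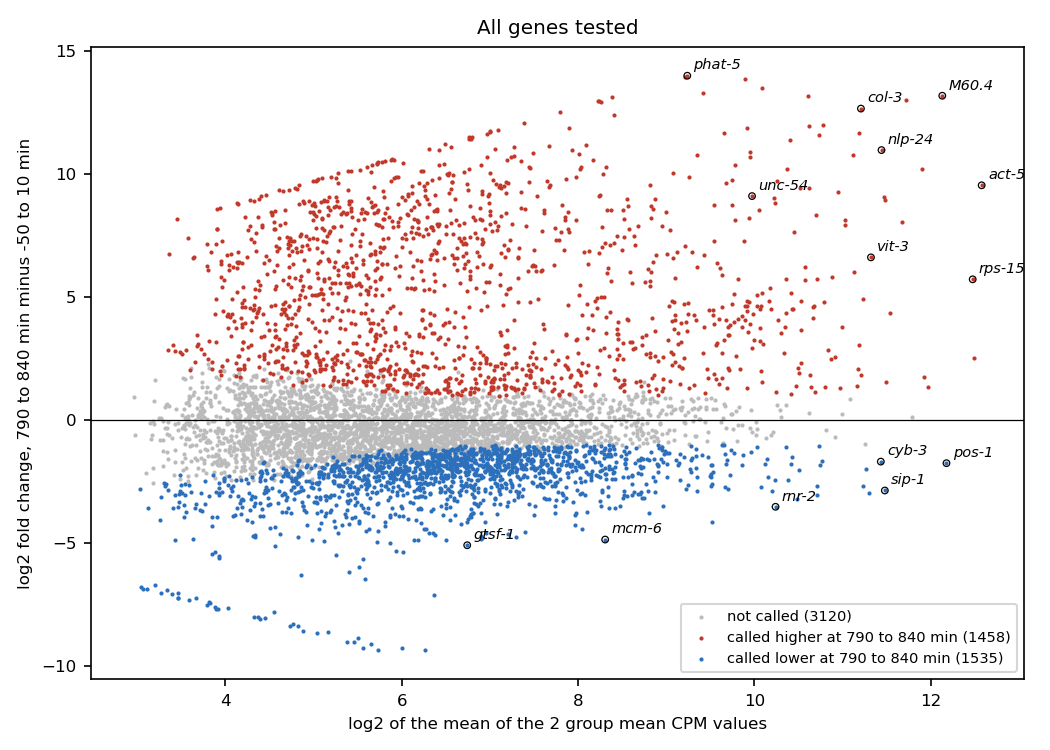
Log2 fold change (late minus early, TMM scale) against the log2 of the mean of both groups' mean CPM for the 6113 genes tested, with calls in red (1458 higher) and blue (1535 lower) and examples named. Rises reach further from 0 than falls, and genes with no count in one group lie along the sloping edges, where the fitted value depends on the prior count.

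Where in the genome the counts came from differed as well. The share of gene counts from genes on the X chromosome was 12.0% to 15.8% in late embryos and 3.46% to 5.63% in early embryos, with means of 14.1% ± 1.25 (SD, n = 6) and 4.21% ± 0.752 (SD, n = 8). The groups did not overlap, and the exact two-sided permutation test over the embryos gave p = 0.000333, the smallest that the regroupings of 14 embryos allow, or 0.000583 adjusted over 7 such values. Within numbers 1 to 50 the difference was 5.37 percentage points (exact permutation p = 0.0119). Of 663 tested X-linked genes 303 (45.7%) were higher and 93 (14.0%) lower in late embryos, with a median log2 fold change of 0.98. The X median was 1.41 with relative log expression and 0.83 with upper quartile factors but -0.07 with total counts, where the median of all genes was -1.38. On the 5 autosomes 17.2% to 30.2% of tested genes were higher and 23.9% to 27.7% lower. In the germ line of this species X-linked genes are largely silent, as background. The 50 most abundant genes of each embryo took 20.3% to 26.3% of counts in late embryos and 12.9% to 16.4% in early embryos (exact permutation p = 0.000333, 0.000583 adjusted). Thinned to 30049 counts each, late embryos had 4254 to 5074 genes detected and early embryos 4329 to 5283 (exact permutation p = 0.928, adjusted 0.928).

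Most RNAs of maternal regulators were lower at the end. Of 26 tested maternal CCCH zinc-finger proteins and translational regulators, 20 were lower in late embryos and the others were not called, 14 of the falls held, and the median log2 fold change was -1.79. The RNA of pos-1, whose zinc-finger protein controls translation in posterior cells, was at 483 to 4361 CPM (median 796) in late embryos and 4559 to 14843 CPM (median 6929) in early embryos. That is 4361 CPM at 790 min and 483 to 1056 CPM in the other late embryos. It fell (log2 fold change -1.75, SE 0.45, adjusted p = 0.00252) and was among the 10 most abundant RNAs of early embryos. The RNA of mex-5, an anterior polarity factor that binds RNA, was at 13.6 to 253 CPM (median 74.3) in late embryos and 778 to 1803 CPM (median 1211) in early embryos and fell too (log2 fold change -2.90, SE 0.44, adjusted p = 6.28e-06). The groups did not overlap for either gene, and the 790 min embryo was the late embryo nearest to the early ones. The oocyte maturation factor oma-2 was at 126 to 974 CPM (median 250.3) in late embryos and 841 to 4636 CPM (median 2414) in early embryos, and the 790 min embryo overlapped the early group (log2 fold change -2.01, SE 0.47, adjusted p = 0.00114). For gld-3, which promotes poly(A) tailing of germ line RNAs, 1.33 to 46.1 CPM (median 17.1) in late embryos and 371 to 669 CPM (median 536) in early embryos were found (log2 fold change -3.73, SE 0.52, adjusted p = 1.65e-06). The germ line repressor pie-1 was at 25.7 to 507 CPM (median 79.9) in late embryos and 133 to 936 CPM (median 621) in early embryos and passed the test (log2 fold change -1.36, SE 0.50, adjusted p = 0.0264) but was not called under every scaling. The Nanos homologue nos-2, which acts in primordial germ cells, was at 21.1 to 282 CPM (median 106) in late embryos and 482 to 1357 CPM (median 783) in early embryos (log2 fold change -1.81, SE 0.44, adjusted p = 0.00146). Within numbers 1 to 50, where the earlier embryos were labelled 30 to 90 min, 3 of 29 list members were called lower, and pos-1 had a log2 fold change of -0.94 and oma-2 of 0.57, neither called.

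The level of these RNAs at 1 time also varied between blocks of numbers. At 380 to 420 min pos-1 was at 548 and 871 CPM in the 2 embryos of numbers 1 to 50, 51.9 to 2378 CPM in the 4 of numbers 51 to 70, and 236 and 912 CPM in the 2 of numbers 71 to 82. It was at 160 and 236 CPM in the 2 of numbers 83 to 94 and 0 to 101 CPM in the 5 of numbers 95 to 139. The 483 to 1056 CPM of late embryos other than the 790 min embryo overlapped the values of the opening 3 blocks at that earlier time. The part of the block in the late level of maternal RNAs was not tested. Each library is a whole embryo, so fewer cells of a type and less RNA per cell cannot be told apart for this or any later group of genes.

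About as many germ granule genes fell as were not called. P granules are bodies of RNA and protein that mark the germ line. Of 27 tested P granule and small RNA factors 13 were lower and 1 higher (median -1.59, 10 of the falls held). Within numbers 1 to 50, 2 of 24 were lower. The P granule scaffold gene meg-2 had no count in any late embryo and 8.15 to 98.6 CPM (median 54.9) in early embryos, so it was at least 69.8-fold lower (adjusted p = 2.87e-05, floor of 3 counts over the late group). The Argonaute wago-1 was at 36.5 to 282 CPM (median 79.9) in late embryos and 233 to 1530.0 CPM (median 866) in early embryos (log2 fold change -2.33, SE 0.47, adjusted p = 2.24e-04). The RNA of deps-1, needed for P granule assembly, was at 24.1 to 311 CPM (median 118) in late embryos and 233 to 1399 CPM (median 641) in early embryos (log2 fold change -1.59, SE 0.45, adjusted p = 0.00517). The helicase gene glh-1 went the other way, at 36.7 to 294 CPM (median 61.7) in late embryos and 0 to 87.5 CPM (median 39.3) in early embryos, and passed the test (log2 fold change 1.87, SE 0.71, adjusted p = 0.0312) without holding under every scaling. For pgl-1, a core P granule protein, 39.0 to 553 CPM (median 155) in late embryos and 325 to 743 CPM (median 549) in early embryos were measured, and it was not called (log2 fold change -0.61, SE 0.42, adjusted p = 0.24). Its 95% interval of -1.48 to 0.27 does not exclude a fall of more than 2-fold.

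Eggshell and egg activation genes were split. Of 24 tested members 9 were lower and 2 higher, with a median of -0.97. Without the 840 min embryo 5 were lower and 5 higher. Within numbers 1 to 50, 1 of 23 was lower and 0 were higher. The chondroitin proteoglycan cpg-1, part of the eggshell, was at 213 to 1739.9 CPM (median 397) in late embryos and 1383 to 14243 CPM (median 3369) in early embryos (log2 fold change -1.99, SE 0.50, adjusted p = 0.00195). Its highest early value was in the shallow embryo of number 97. The egg activation gene egg-3 was at 14.5 to 82.1 CPM (median 38.3) in late embryos and 109.9 to 483 CPM (median 262) in early embryos (log2 fold change -1.63, SE 0.46, adjusted p = 0.00487). It lost its call without the 790 min embryo (log2 fold change -1.11, adjusted p = 0.0576). The chitin synthase gene chs-1 was at 16.0 to 97.9 CPM (median 39.7) in late embryos and 11.0 to 80.2 CPM (median 25.9) in early embryos, and was not called (log2 fold change 1.29, SE 0.57, adjusted p = 0.064). Both members that rose, perm-2 and perm-4, make eggshell proteins. For perm-2 the values were 314 to 3261 CPM (median 952) in late embryos and 0 to 64.4 CPM (median 11.8) in early embryos (log2 fold change 6.24, SE 0.71, adjusted p = 7.05e-08). For perm-4 they were 443 to 1446 CPM (median 941) in late embryos and 0 to 113 CPM (median 12.0) in early embryos (log2 fold change 5.46, SE 0.70, adjusted p = 4.52e-07). Their levels were highest in the 790 min embryo, and within numbers 1 to 50 their log2 fold changes were 0.62 and -0.33, neither called (adjusted p = 0.495 and 0.676).

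Yolk protein genes, which adults express in the intestine, showed the same pattern as perm-2 and perm-4. All 6 genes were higher in late embryos (median 5.79), with shares of 0.853% to 5.07% of gene counts in late embryos and 0.00333% to 0.157% in early embryos (exact permutation p = 0.000333, 0.000583 adjusted). Within numbers 1 to 50 the difference in share was 0.282 percentage points (exact permutation p = 0.881), and the log2 fold changes of vit-3 and vit-5 were 0.81 and 0.27 (adjusted p = 0.204 and 0.783). The RNA of vit-3 was at 2401 to 9702 CPM (median 4527) in late embryos and 0 to 240.4 CPM (median 59.9) in early embryos. That of vit-5 was at 1389 to 11949 CPM (median 3184) in late embryos and 0 to 288 CPM (median 61.0) in early embryos. The sequences of vit-3, vit-4 and vit-5 are nearly identical, so their separate counts are uncertain.

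Cell polarity genes were lower for 5 of 15 tested members and higher for 1, against 25.1% and 23.9% of all genes tested. Without the 790 min embryo 5 were lower and 3 higher of 16. Without the 840 min embryo 3 were lower, and within numbers 1 to 50 1 was lower and 1 higher of 12. The posterior polarity RING-finger protein gene par-2 was at 0 to 27.1 CPM (median 7.38) in late embryos and 58.0 to 499 CPM (median 84.3) in early embryos (log2 fold change -2.59, SE 0.72, adjusted p = 0.00478). The spindle positioning regulator gpr-1 was at 0 to 17.3 CPM (median 0) in late embryos and 8.89 to 63.3 CPM (median 20.1) in early embryos (log2 fold change -3.06, SE 1.08, adjusted p = 0.0222). The 14-3-3 gene par-5 was the member that rose, at 1045 to 3201 CPM (median 2079) in late embryos and 1499 to 2622 CPM (median 1705) in early embryos, with overlapping groups (log2 fold change 1.29, SE 0.35, adjusted p = 0.0035). Its direction reversed on the spike-in scale (-0.02) and it was not called with total counts.

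Many RNAs of cell division were lower at the end. Of 47 tested cell cycle and mitosis genes 21 were lower and 2 higher (median -1.37, 19 falls held, and 12 of 47 lower within numbers 1 to 50). The B-type cyclin cyb-3, which drives entry into mitosis, was at 263 to 2074 CPM (median 615) in late embryos and 3497 to 5897 CPM (median 4941) in early embryos, and the groups did not overlap (log2 fold change -1.69, SE 0.39, adjusted p = 8.86e-04). The cyclin cyb-1 was at 89.3 to 542 CPM (median 137) in late embryos and 1069.7 to 1529 CPM (median 1260.4) in early embryos (log2 fold change -1.84, SE 0.37, adjusted p = 2.16e-04). Its kinase cdk-1 was at 51.3 to 311 CPM (median 93.8) in late embryos and 466 to 1073 CPM (median 907) in early embryos (log2 fold change -1.85, SE 0.38, adjusted p = 2.66e-04). Within numbers 1 to 50 all 3 were called lower too, with log2 fold changes of -3.68, -2.86 and -2.56. Both members called higher follow. The kinesin klp-7, which takes microtubules apart, was at 58.7 to 253 CPM (median 114) in late embryos and 0 to 85.8 CPM (median 29.8) in early embryos (log2 fold change 2.53, SE 0.48, adjusted p = 1.17e-04). The RNA of cki-1, an inhibitor that holds cells out of division, was at 0 to 74.5 CPM (median 57.8) in late embryos and 0 to 142 CPM (median 13.2) in early embryos (log2 fold change 1.89, SE 0.75, adjusted p = 0.0397). For cki-1 the 790 min embryo had no count and the groups overlapped, and the call did not hold under every scaling.

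DNA replication genes fell as a group. All 27 called members of 34 tested were lower, 21 of them held, and 19 of 34 were lower within numbers 1 to 50. Their summed share was 0.0715% to 0.337% of counts in late embryos and 1.19% to 1.65% in early embryos. The replicative helicase subunit mcm-6 was at 0 to 21.3 CPM (median 10.4) in late embryos and 426 to 849.6 CPM (median 647) in early embryos (log2 fold change -4.85, SE 0.59, adjusted p = 1.89e-07). The ribonucleotide reductase subunit rnr-2, which makes DNA precursors, was at 34.2 to 317 CPM (median 87.5) in late embryos and 1237 to 3448 CPM (median 2164) in early embryos (log2 fold change -3.52, SE 0.45, adjusted p = 4.00e-07). Its partner subunit rnr-1 was at 6.04 to 121 CPM (median 44.4) in late embryos and 374 to 2263 CPM (median 622) in early embryos (log2 fold change -2.99, SE 0.51, adjusted p = 2.78e-05). The sliding clamp pcn-1 was at 28.7 to 230.4 CPM (median 144) in late embryos and 785 to 2051 CPM (median 1078) in early embryos (log2 fold change -2.33, SE 0.43, adjusted p = 9.70e-05). The nuclease crn-1, which acts in replication and in the breakdown of DNA in dying cells, was at 0 to 7.55 CPM (median 5.16) in late embryos and 80.7 to 333 CPM (median 244) in early embryos (log2 fold change -4.84, SE 0.63, adjusted p = 5.70e-07). The RNA of mre-11, a nuclease of double-strand break repair, was at 0 to 11.5 CPM (median 1.53) in late embryos and 102 to 199.7 CPM (median 139) in early embryos (log2 fold change -4.85, SE 0.70, adjusted p = 3.15e-06). No late embryo reached an early embryo for any of these 6 genes.

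**Figure D3:**
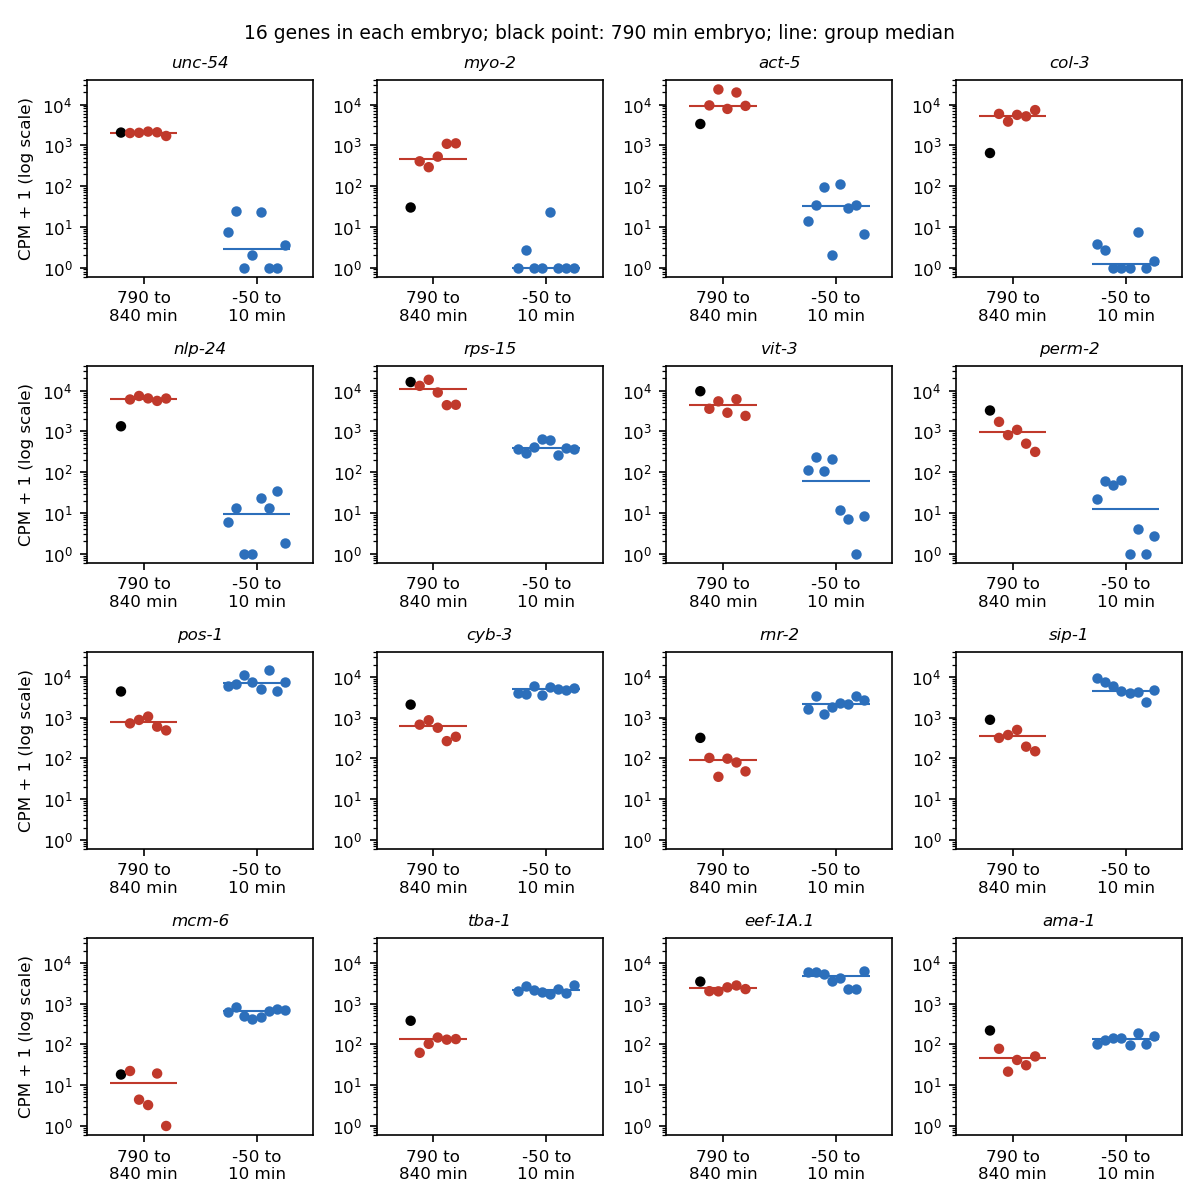
CPM + 1 on a log axis for 16 genes in each of the 6 late embryos (red, with the 790 min embryo in black) and the 8 early embryos (blue), with a line at each group's median. The groups do not overlap for genes such as unc-54, rps-15, cyb-3 and mcm-6, and overlap for ama-1 and eef-1A.1.

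Most proteasome subunits, which degrade tagged proteins, and part of the nuclear pore and splicing proteins were lower in late embryos. Of 32 tested proteasome subunits 24 were lower and the others were not called (median -1.65, 17 held). Their summed shares were 0.180% to 0.660% in late embryos and 1.64% to 2.18% in early embryos. Within numbers 1 to 50, 4 of 31 subunits were lower, against 7.84% of all genes tested there. The core subunit pbs-1 was at 69.3 to 156 CPM (median 105) in late embryos and 943 to 1697 CPM (median 1347) in early embryos (log2 fold change -2.58, SE 0.35, adjusted p = 1.37e-06). The RNA of pas-5 was at 6.04 to 30.8 CPM (median 24.1) in late embryos and 99.8 to 491 CPM (median 414) in early embryos (log2 fold change -3.21, SE 0.45, adjusted p = 2.06e-06). The ubiquitin receptor rpn-13 was at 0 to 10.7 CPM (median 2.28) in late embryos and 16.3 to 355 CPM (median 131) in early embryos (log2 fold change -4.66, SE 0.91, adjusted p = 1.62e-04). Nuclear pore proteins were lower for 13 of 24 (7 held), but for 8 without the 800 min embryo and 7 without the 840 min embryo. Within numbers 1 to 50, 4 of 24 were lower. The membrane subunit npp-22 was at 13.0 to 133 CPM (median 50.5) in late embryos and 399.7 to 1165 CPM (median 553) in early embryos (log2 fold change -2.40, SE 0.43, adjusted p = 5.17e-05). Among Sm and Lsm proteins of the spliceosome 9 of 15 were lower, but 2 held. Leaving out the 790, 800 or 840 min embryo gave 4, 3 or 4 lower, and 7 of 15 were lower within numbers 1 to 50. The core gene snr-1 was at 124 to 236 CPM (median 186) in late embryos and 799 to 2098 CPM (median 1232) in early embryos (log2 fold change -1.83, SE 0.36, adjusted p = 1.50e-04).

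Of 35 tested chromatin regulators 16 were lower and the others were not called (median -1.21, 7 held). Leaving out the 790, 800 or 840 min embryo gave 10, 9 or 9 lower. The histone variant H2A.Z gene htz-1 was at 198 to 559 CPM (median 322) in late embryos and 1716 to 3056 CPM (median 2419) in early embryos (log2 fold change -1.79, SE 0.34, adjusted p = 1.07e-04). The X-linked histone demethylase gene utx-1 had no count in late embryos and 0 to 43.8 CPM (median 32.3) in early embryos, at least 38.3-fold lower (adjusted p = 7.26e-04). Of 13 dosage compensation and sex determination genes 7 were lower. The condensin subunit mix-1 was at 0 to 74.9 CPM (median 35.2) in late embryos and 160.3 to 487 CPM (median 234) in early embryos (log2 fold change -1.99, SE 0.54, adjusted p = 0.00405). The X signal gene sex-1, a nuclear hormone receptor that counts X chromosomes, was at 0 to 18.1 CPM (median 10.0) in late embryos and 54.1 to 299.5 CPM (median 99.4) in early embryos (log2 fold change -2.54, SE 0.63, adjusted p = 0.00176). The RNA of fem-3, a male-promoting gene with maternal RNA, was at 0 to 18.1 CPM (median 6.50) in late embryos and 68.5 to 209 CPM (median 141) in early embryos (log2 fold change -3.09, SE 0.71, adjusted p = 9.13e-04).

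Genes that direct early lineages are transcribed for a short time between both ends, and few could be tested. Of 31 listed genes 4 passed the filter and 2 of those were lower, or 4 of 5 without the 790 min embryo. The T-box gene tbx-9 was at 0 to 7.55 CPM (median 0) in late embryos and 37.7 to 166 CPM (median 66.5) in early embryos (log2 fold change -4.59, SE 0.94, adjusted p = 2.77e-04). The Notch-responsive repressor ref-1 had no count in late embryos and 0 to 36.4 CPM (median 19.6) in early embryos, at least 30.5-fold lower (adjusted p = 3.21e-04). The list's share of counts had a median of 0.0390% in early embryos, 0.255% at 20 to 100 min, 0.265% at 110 to 190 min and 0.00699% in late embryos. Among tissue fate regulators 3 of 10 tested were higher and 1 was lower, and without the 790 min embryo 8 of 12 were higher and 1 was lower. The pharynx regulator pha-4 was at 5.76 to 222 CPM (median 146) in late embryos and 0 to 87.6 CPM (median 12.1) in early embryos, with overlapping groups (log2 fold change 3.76, SE 0.89, adjusted p = 0.00114). Its median over embryos was 704 CPM at 200 to 290 min. The Hox gene lin-39, which patterns the mid-body, was at 5.76 to 191 CPM (median 42.5) in late embryos and 0 to 28.2 CPM (median 10.2) in early embryos (log2 fold change 3.70, SE 0.81, adjusted p = 5.63e-04). The maternal caudal homologue pal-1, which specifies posterior blastomeres, fell and was at 0 to 63.4 CPM (median 13.5) in late embryos and 164 to 379 CPM (median 272) in early embryos (log2 fold change -2.86, SE 0.67, adjusted p = 0.00103). Homeobox ceh genes had 2 higher and 6 lower of 14 tested, or 4 and 5 of 16 without the 790 min embryo. Of these ceh-37 was at 0 to 209 CPM (median 57.2) in late embryos and 0 to 66.6 CPM (median 1.65) in early embryos (log2 fold change 5.77, SE 1.12, adjusted p = 1.49e-04). No count of ceh-83 was found in late embryos, against 0 to 109.5 CPM (median 56.4) in early embryos, at least 64.4-fold lower (adjusted p = 2.31e-04).

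Muscle RNAs were among the largest rises. Of 29 tested body wall muscle genes 26 were higher and 1 lower (median 8.11, 25 rises held, 20 of 32 higher within numbers 1 to 50). Their share of counts was 2.83% to 6.60% in late embryos and 0.293% to 0.570% in early embryos. The body wall myosin heavy chain unc-54 was at 1693 to 2169 CPM (median 2038) in late embryos and 0 to 23.6 CPM (median 1.78) in early embryos, and the late values lay close together (log2 fold change 9.10, SE 0.76, adjusted p = 7.16e-10). Its partner in thick filaments, myo-3, was at 184 to 1745 CPM (median 937) in late embryos and 0 to 21.9 CPM (median 0) in early embryos (log2 fold change 9.55, SE 0.87, adjusted p = 2.37e-09), with 184 CPM at 790 min. The essential light chain mlc-3 was at 2126 to 13431 CPM (median 7920.1) in late embryos and 0 to 29.5 CPM (median 10.2) in early embryos (log2 fold change 10.22, SE 0.80, adjusted p = 2.64e-10). The giant spring protein gene ttn-1 was at 202 to 877 CPM (median 439) in late embryos and 0 to 1.69 CPM (median 0.370) in early embryos (log2 fold change 9.78, SE 0.61, adjusted p = 2.57e-11). Within numbers 1 to 50 ttn-1 was not called (log2 fold change 1.04, adjusted p = 0.249). The actin act-2 was the member called lower, at 143 to 1216 CPM (median 320.1) in late embryos and 765 to 2134 CPM (median 1663) in early embryos (log2 fold change -1.10, SE 0.39, adjusted p = 0.0233), and that call was lost under some scalings and without the 790 min embryo. In contrast act-1 rose and was at 1913 to 4894 CPM (median 3806) in late embryos and 741 to 1201 CPM (median 944) in early embryos (log2 fold change 3.06, SE 0.37, adjusted p = 1.70e-07). The transcripts of act-1, act-2 and act-3 are nearly identical, so the split between them is uncertain.

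Genes that attach muscle to the body wall followed, with 15 of 16 tested higher (median 5.76). Vinculin deb-1 was at 133 to 1215 CPM (median 556) in late embryos and 0 to 11.0 CPM (median 1.93) in early embryos (log2 fold change 9.13, SE 0.72, adjusted p = 2.90e-10). The basement membrane collagen let-2 was at 882 to 2036 CPM (median 1040.0) in late embryos and 0 to 85.8 CPM (median 2.69) in early embryos (log2 fold change 6.85, SE 0.87, adjusted p = 4.33e-07). The RNA of ost-1, which encodes the matrix protein SPARC, was at 1193 to 3568 CPM (median 1873) in late embryos and 0 to 98.6 CPM (median 6.71) in early embryos (log2 fold change 8.54, SE 0.77, adjusted p = 2.08e-09).

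Pharyngeal genes were nearly absent at the start. Of 27 listed 8 were tested and all 8 rose and held. Pharyngeal muscle myosin myo-2 was at 28.8 to 1115 CPM (median 465) in late embryos and 0 to 21.9 CPM (median 0) in early embryos (log2 fold change 10.58, SE 1.01, adjusted p = 4.36e-09). Its level was 28.8 CPM at 790 min and 289 to 1115 CPM in the other late embryos. In early embryos its counts were confined to 2 embryos, one of them the shallow embryo of number 71 at 21.9 CPM. The troponin I gene tni-4 was at 230.4 to 5421 CPM (median 3679) in late embryos and 0 to 12.6 CPM (median 0.847) in early embryos (log2 fold change 11.57, SE 0.89, adjusted p = 2.33e-10), again lowest at 790 min. Another myosin heavy chain gene, myo-5, had 28.8 to 986 CPM (median 683) in late embryos and no count in early embryos, at least 2148-fold higher (adjusted p = 7.46e-09, floor of 3 counts over the early group). The gland protein gene phat-5 had 80.7 to 2039 CPM (median 1215) in late embryos and none in early embryos, at least 4530.1-fold higher (adjusted p = 4.38e-09).

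Of 36 intestinal genes 24 were tested and all 24 were higher (median 6.65, 23 held, 15 of 32 higher within numbers 1 to 50). A member absent at the start could only be called higher. The microvillar actin act-5 was at 3336 to 23409.6 CPM (median 9399.9) in late embryos and 1.02 to 109.5 CPM (median 30.8) in early embryos (log2 fold change 9.54, SE 0.86, adjusted p = 2.06e-09). The highest late values were 23410 CPM at 810 min and 19732 CPM at 830 min. The intestinal intermediate filament ifb-2 was at 248 to 4297 CPM (median 2749.9) in late embryos and 0 to 16.3 CPM (median 3.61) in early embryos (log2 fold change 10.19, SE 0.86, adjusted p = 7.31e-10). The lysosomal protease asp-1 was at 2274 to 3439 CPM (median 2714) in late embryos and 0 to 72.5 CPM (median 10.8) in early embryos (log2 fold change 7.65, SE 0.67, adjusted p = 1.24e-09). In contrast the gut regulator elt-2 was at 2.26 to 55.1 CPM (median 22.2) in late embryos and 0 to 11.0 CPM (median 0.665) in early embryos and did not pass the filter. Nor did the gut esterase ges-1, at 0 to 20.3 CPM (median 0) in late embryos and 0 to 3.14 CPM (median 0) in early embryos. The vacuolar ATPase, a proton pump used by gut, excretory and epidermal cells, had 17 of 21 subunits higher and 1 lower (median 2.87, 14 rises held, 11 higher within numbers 1 to 50). Its share of counts was 0.538% at 790 min, 1.49% to 2.39% in the other late embryos and 0.393% to 0.505% in early embryos. The membrane subunit vha-5 was at 374 to 1146 CPM (median 843) in late embryos and 0 to 31.9 CPM (median 2.21) in early embryos (log2 fold change 7.89, SE 0.74, adjusted p = 3.69e-09). The RNA of vha-4 was at 855 to 5887 CPM (median 3165) in late embryos and 133 to 608 CPM (median 230.3) in early embryos (log2 fold change 4.61, SE 0.51, adjusted p = 5.24e-08). The subunit that fell, vha-18, was at 1.53 to 58.7 CPM (median 31.6) in late embryos and 76.7 to 499 CPM (median 201) in early embryos (log2 fold change -1.97, SE 0.55, adjusted p = 0.00468).

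Cuticle collagens, the structural proteins of the larval skin, rose: 65 of 176 listed were tested, 61 were higher, all of them held, and the others were not called. Their share was 4.17% to 5.56% in late embryos and 0.0190% to 0.210% in early embryos. Collagen col-160 was at 5374 to 8523 CPM (median 6319) in late embryos and 0 to 123 CPM (median 33.9) in early embryos (log2 fold change 8.05, SE 0.64, adjusted p = 2.95e-10). For col-3 the values were 645 to 7303 CPM (median 5356) in late embryos and 0 to 6.28 CPM (median 0.212) in early embryos (log2 fold change 12.66, SE 0.83, adjusted p = 3.64e-11). They were 645 CPM at 790 min and 3816 to 7303 CPM in the other late embryos. Collagens of earlier embryonic cuticle assembly did not follow. The collagen sqt-3 was at 27.2 to 248 CPM (median 103) in late embryos and 0.589 to 449 CPM (median 16.9) in early embryos, with overlapping groups, and was not called (log2 fold change 1.94, SE 0.90, adjusted p = 0.0755). Its median was 7662 CPM at 400 to 590 min. The furrow collagen dpy-7 was at 0 to 92.2 CPM (median 6.40) in late embryos and 0 to 43.8 CPM (median 1.32) in early embryos and did not pass the filter, and its median was 1379 CPM at 400 to 590 min. Within numbers 1 to 50 the collagens tested in the main comparison had a median of 0.44. Of all 96 collagens tested within those numbers 28 were higher.

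Precuticle and cuticle matrix genes, which build the transient sheath under which the cuticle forms, were mostly out of reach, with 4 of 58 tested and 3 higher (7 of 7 without the 790 min embryo). Their share was 0.0732% to 0.0952% in late embryos and 0% to 0.110% in early embryos, and its median was 1.23% at 400 to 590 min. Among genes of epidermal junctions and elongation 11 of 23 were higher and 3 lower. The epidermal intermediate filament ifb-1 was at 495 to 2340.0 CPM (median 1535) in late embryos and 0 to 21.9 CPM (median 7.48) in early embryos (log2 fold change 8.75, SE 0.75, adjusted p = 9.51e-10). The spectraplakin vab-10, which links filaments to attachment structures, was at 219 to 1279 CPM (median 955) in late embryos and 0 to 39.8 CPM (median 22.3) in early embryos (log2 fold change 6.42, SE 0.53, adjusted p = 5.17e-10). The catenin genes hmp-1 and hmp-2 and the ephrin receptor gene vab-1 were the 3 that fell, with log2 fold changes of -1.22, -1.27 and -2.13 (adjusted p = 0.0354, 0.0452 and 0.00437).

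Epidermal antimicrobial peptides, small secreted peptides that the skin makes against fungi and wounds, were abundant in late embryos. Of 9 tested 8 were higher (median 8.56). The RNA of nlp-24 was at 1337 to 7408 CPM (median 6244) in late embryos and 0 to 33.3 CPM (median 8.68) in early embryos, with 1337 CPM at 790 min and 5611 to 7408 CPM in the other late embryos (log2 fold change 10.97, SE 0.89, adjusted p = 4.24e-10). Its median at 600 to 780 min was 272 CPM. For nlp-29 there were 46.1 to 1237 CPM (median 668) in late embryos and 1 count in all early embryos, a ratio of summed levels of 7485-fold (95% counting interval 1343 to 295743) (adjusted p = 5.46e-11). The fungus-induced peptide relative fipr-4 had 51.9 to 583 CPM (median 529) in late embryos and none in early embryos, at least 1541-fold higher (adjusted p = 3.00e-09).

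Some neuronal RNAs were higher in late embryos, at varied levels. Among genes of synaptic release and neurotransmitters 11 of 40 were tested, 5 were higher and the others were not called. Without the 790 min embryo 17 of 22 tested were higher. The list median of 1.07 turned to -0.25 on the spike-in scale. The synaptic vesicle GTPase rab-3 had no count at 790 min, 152 to 205 CPM in the other late embryos and none in early embryos, and so failed the filter when all 14 embryos were used. Without the 790 min embryo it passed the test (adjusted p = 8.34e-10), and the late group as a whole was at least 508-fold higher. The release factor unc-13 was at 63.2 to 183 CPM (median 122) in late embryos and 0 to 1.36 CPM (median 0) in early embryos (log2 fold change 8.79, SE 0.72, adjusted p = 5.21e-10). The vesicle protein snb-1 was at 80.7 to 296 CPM (median 216) in late embryos and 99.8 to 555 CPM (median 371) in early embryos and was not called (log2 fold change 0.23, SE 0.40, adjusted p = 0.648). The peptide-processing enzyme egl-21 was at 184 to 975 CPM (median 732) in late embryos and 0 to 16.3 CPM (median 0) in early embryos (log2 fold change 8.54, SE 0.83, adjusted p = 5.93e-09). The chaperone-like gene sbt-1 was at 104 to 704 CPM (median 511) in late embryos and 0 to 25.2 CPM (median 0) in early embryos (log2 fold change 7.66, SE 0.93, adjusted p = 2.01e-07).

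Few neuropeptide precursors passed the filter, and those absent from early embryos could only be called higher. Of 31 FMRFamide-like genes 8 were tested and all 8 were higher, and 23 of 23 tested were higher without the 790 min embryo. The median was 8.86, or 8.42 with the 2 genes lacking early counts set at their bound. That bound is a ratio of plain CPM, so the median of 8.42 mixes 2 scales. The RNA of flp-24 was at 109 to 338 CPM (median 210.0) in late embryos and 0 to 1.27 CPM (median 0) in early embryos (log2 fold change 9.34, SE 0.62, adjusted p = 3.95e-11). For flp-12 there were 68.4 to 196 CPM (median 135) in late embryos and 3 counts over all early embryos, a ratio of summed levels of 424-fold (95% counting interval 145 to 2064) (adjusted p = 2.64e-10). Of 103 other neuropeptide genes 12 were tested and all 12 were higher, and 31 of 31 tested were higher without the 790 min embryo. Of these nlp-80 had 85.5 to 279 CPM (median 147) in late embryos and none in early embryos, at least 509-fold higher (adjusted p = 3.62e-09). The RNA of nlp-36 was at 438 to 789.7 CPM (median 741) in late embryos and 219 to 399 CPM (median 268) in early embryos (log2 fold change 2.41, SE 0.33, adjusted p = 1.11e-06).

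**Figure D4:**
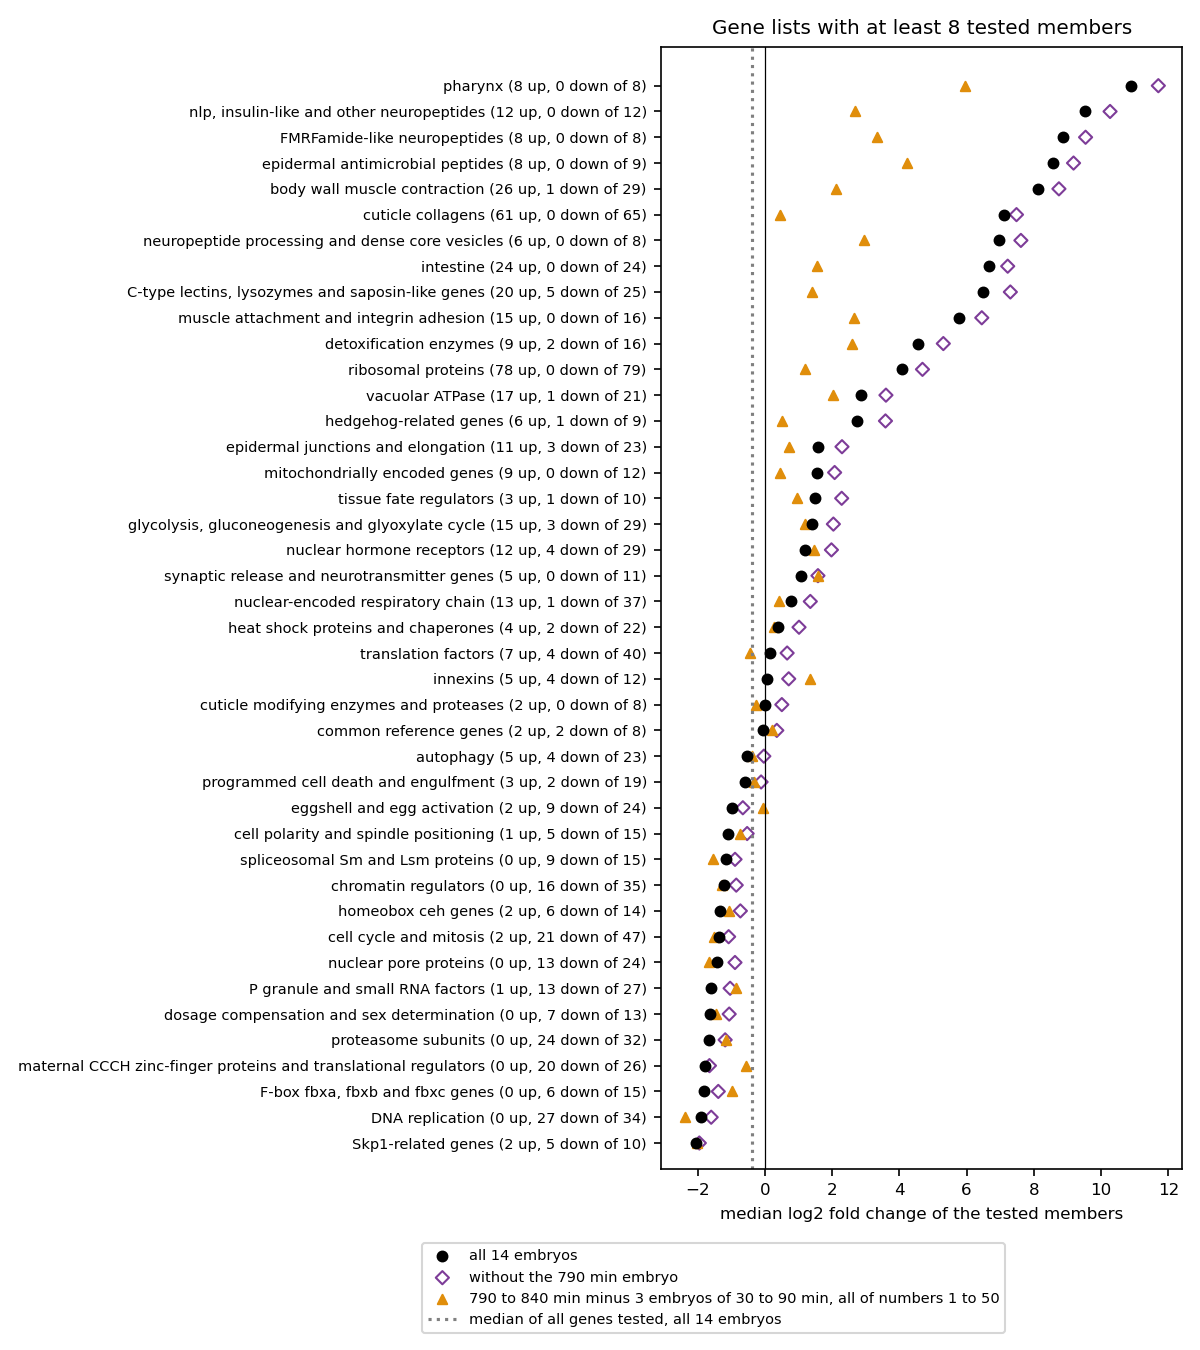
Median log2 fold change (late minus early) of the tested members of each gene list with at least 8 of them, over all 14 embryos (black), without the 790 min embryo (open) and against the 3 embryos of 30 to 90 min within numbers 1 to 50 (triangles), with the members called higher and lower in brackets. Muscle, pharynx, intestine, collagen and neuropeptide lists stand to the right of 0 in all 3 settings, DNA replication and Skp1-related lists to the left, and the yolk list is not drawn because it has 6 members.

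Ribosomal protein RNAs took 12.4% to 15.7% of gene counts in late embryos and 1.07% to 2.74% in early embryos, with means of 13.4% ± 1.15 (SD, n = 6) and 1.72% ± 0.532 (SD, n = 8). The groups did not overlap (exact permutation p = 0.000333, 0.000583 adjusted), and within numbers 1 to 50 the difference was 6.58 percentage points (exact permutation p = 0.0119). Of 79 tested genes 78 were higher (median 4.08, 77 held), and 32 were higher within numbers 1 to 50. The small-subunit gene rps-15 was at 4408 to 18477 CPM (median 11067) in late embryos and 267 to 646 CPM (median 389) in early embryos (log2 fold change 5.72, SE 0.44, adjusted p = 2.44e-10). It had 13121 to 18477 CPM in the 790, 800 and 810 min embryos and 4408 to 9013 CPM in the 820, 830 and 840 min embryos. For rps-8 the values were 3571 to 7184 CPM (median 5173) in late embryos and 210.3 to 1084 CPM (median 532) in early embryos (log2 fold change 4.34, SE 0.41, adjusted p = 4.34e-09). The paralogue genes rpl-25.1 and rpl-11.2 had the largest rises of the list. Levels were 374 to 972 CPM (median 814) in late embryos and 11.8 to 109.5 CPM (median 18.2) in early embryos for rpl-25.1 (log2 fold change 6.02, SE 0.55, adjusted p = 2.18e-09). For rpl-11.2 they were 1002 to 1942 CPM (median 1502) in late embryos and 0 to 219 CPM (median 29.0) in early embryos (log2 fold change 5.89, SE 0.62, adjusted p = 2.32e-08).

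Translation factors did not move as a block, with 7 higher and 4 lower of 40 (median 0.15, -0.86 with total counts). With the 790 min embryo left out 10 were higher and 2 lower of 41. The elongation factor eef-1A.1 was at 2004 to 3479.8 CPM (median 2395) in late embryos and 2282 to 6458 CPM (median 4819) in early embryos and was not called (log2 fold change 0.13, SE 0.36, adjusted p = 0.788). On the spike-in scale it was called lower (-1.45). The factor iff-2, an eIF5A gene, was at 259 to 1540.4 CPM (median 987) in late embryos and 13.1 to 296 CPM (median 39.1) in early embryos (log2 fold change 4.81, SE 0.65, adjusted p = 1.01e-06). The initiation factor gene eif-2A, which fell, was at 55.8 to 128 CPM (median 67.6) in late embryos and 438 to 876 CPM (median 536) in early embryos (log2 fold change -1.86, SE 0.36, adjusted p = 1.22e-04).

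Mitochondrially encoded RNAs made up 1.12% to 1.45% of counts in late embryos and 0.570% to 1.70% in early embryos (exact permutation p = 0.103, adjusted 0.144), and the groups overlapped. By gene 9 of 12 were higher on the TMM scale, of which 4 held. Within numbers 1 to 50, 0 of 12 were called, while 14.7% of all genes tested there were higher. MTCE.25 was at 377 to 905 CPM (median 548) in late embryos and 78.4 to 285 CPM (median 118) in early embryos (log2 fold change 3.15, SE 0.36, adjusted p = 7.13e-08). Nuclear genes of the respiratory chain gave 13 higher and 1 lower of 37, with 4 rises held, and their median of 0.77 turned to -0.32 with total counts. Without the 790 min embryo 28 of 37 were higher. Within numbers 1 to 50, 1 of 37 was higher and 1 lower. The cytochrome oxidase subunit cox-7C was at 1625 to 3369 CPM (median 2769) in late embryos and 504 to 2296 CPM (median 774) in early embryos (log2 fold change 2.49, SE 0.40, adjusted p = 1.54e-05). The ATP synthase subunit atp-2 was at 2157 to 4061 CPM (median 3076) in late embryos and 1296 to 1839 CPM (median 1502) in early embryos (log2 fold change 2.07, SE 0.34, adjusted p = 1.58e-05).

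Genes of sugar metabolism were more often higher. Of 29 genes of glycolysis, gluconeogenesis and the glyoxylate cycle 15 were higher and 3 lower (median 1.40, -0.12 on the spike-in scale). Aldolase aldo-1 was at 248 to 799 CPM (median 452) in late embryos and 0 to 11.0 CPM (median 1.06) in early embryos (log2 fold change 8.12, SE 0.70, adjusted p = 1.11e-09). The gluconeogenic enzyme gene pck-1 had 54.2 to 161 CPM (median 94.5) in late embryos and 3 counts over the early embryos, a ratio of summed levels of 347-fold (95% counting interval 118 to 1686) (adjusted p = 2.16e-09). Glyceraldehyde 3-phosphate dehydrogenase is encoded by 4 genes. The copy gpd-3 rose and was at 772 to 2525 CPM (median 1617) in late embryos and 50.2 to 201 CPM (median 73.3) in early embryos (log2 fold change 5.13, SE 0.45, adjusted p = 1.24e-09). The RNA of gpd-4 fell and was at 15.1 to 133 CPM (median 18.1) in late embryos and 333 to 1719 CPM (median 543) in early embryos (log2 fold change -3.49, SE 0.53, adjusted p = 5.55e-06). The copy gpd-1 fell too, at 31.7 to 559 CPM (median 95.1) in late embryos and 599 to 2815 CPM (median 1219) in early embryos (log2 fold change -2.21, SE 0.47, adjusted p = 4.60e-04). Pairs among these copies are nearly identical (gpd-1 with gpd-4, gpd-2 with gpd-3), so values within a pair are uncertain, while the pairs moved in opposite directions. The other gene that fell was the hexokinase hxk-1 (log2 fold change -1.85, SE 0.41, adjusted p = 5.68e-04).

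Families with members on both sides were common. Tubulins were lower for 5 of 6 tested and higher for 1 (2 of 7 higher without the 790 min embryo). The embryonic alpha-tubulin tba-1 was at 61.3 to 380.2 CPM (median 132) in late embryos and 1752 to 2849 CPM (median 2105) in early embryos (log2 fold change -2.89, SE 0.38, adjusted p = 8.55e-07). The beta-tubulin tbb-2 was at 121 to 605 CPM (median 236) in late embryos and 1697 to 3663 CPM (median 3405) in early embryos (log2 fold change -2.66, SE 0.39, adjusted p = 3.39e-06). The RNA of mec-12, an alpha-tubulin of touch neurons, was at 75.2 to 123 CPM (median 93.6) in late embryos and 0 to 11.0 CPM (median 0) in early embryos (log2 fold change 8.17, SE 0.78, adjusted p = 4.35e-09). Innexins, which form gap junctions, had 5 higher and 4 lower of 12, or 10 and 2 of 16 without the 790 min embryo. Their median of 0.06 turned to -0.93 with total counts and -0.06 with upper quartile factors. Pharyngeal inx-6 had 63.4 to 273 CPM (median 182) in late embryos and none in early embryos, at least 605-fold higher (adjusted p = 3.44e-09). The innexin inx-2 was at 0 to 29.6 CPM (median 13.4) in late embryos and 172 to 778 CPM (median 272) in early embryos (log2 fold change -3.42, SE 0.67, adjusted p = 1.55e-04). Its median was 2877 CPM at 200 to 290 min. The germ line innexin inx-22 was at 0 to 156 CPM (median 6.68) in late embryos and 97.8 to 865 CPM (median 195) in early embryos (log2 fold change -2.72, SE 0.80, adjusted p = 0.00679). It had 156 CPM at 790 min and 0 to 9.03 CPM in the other late embryos. Small heat shock proteins split as well. The RNA of hsp-12.2 had 40.3 to 1769 CPM (median 1415) in late embryos and none in early embryos, at least 4283-fold higher (adjusted p = 6.28e-09). That of sip-1, a small heat shock protein of oocytes and embryos, fell and was at 148 to 881 CPM (median 344) in late embryos and 2363 to 9355 CPM (median 4604) in early embryos (log2 fold change -2.86, SE 0.44, adjusted p = 8.17e-06). Over the whole list of heat shock proteins and chaperones 4 were higher and 2 lower of 22, or 12 and 1 of 23 without the 790 min embryo, with a median of 0.39 that turned to -0.65 with total counts. Of 10 tested Skp1-related genes, adaptors of ubiquitin ligases, 5 were lower and 2 higher. Among the lower ones skr-15 was at 0 to 6.84 CPM (median 0) in late embryos and 17.8 to 266 CPM (median 98.6) in early embryos (log2 fold change -4.32, SE 0.83, adjusted p = 1.37e-04). Its median was 402 CPM at 20 to 100 min. Among the higher ones skr-19 was at 294 to 837 CPM (median 559) in late embryos and 7.07 to 153 CPM (median 35.5) in early embryos (log2 fold change 4.99, SE 0.58, adjusted p = 1.19e-07).

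C-type lectins, lysozymes and saposin-like genes had 20 higher and 5 lower of 25 tested. Lines F56A4.2 and Y19D10A.9, which the annotation gives the same symbol, clec-209, were at 3231 to 9243 CPM (median 4814) and 3199.8 to 9255 CPM (median 4970.4) in late embryos and at 0 to 75.6 CPM (median 10.2) and 0 to 72.5 CPM (median 9.13) in early embryos. Near-identical copies may share reads. The lectin clec-87 was at 122 to 899 CPM (median 233) in late embryos and 3413 to 7488 CPM (median 4393) in early embryos (log2 fold change -2.97, SE 0.40, adjusted p = 9.76e-07). Another member that fell, clec-88, was at 23.7 to 576 CPM (median 116) in late embryos and 1556 to 4121 CPM (median 2934) in early embryos (log2 fold change -3.22, SE 0.51, adjusted p = 1.15e-05). Lysozyme lys-1 was at 62.6 to 271 CPM (median 151) in late embryos and 0 to 2.95 CPM (median 0) in early embryos (log2 fold change 8.56, SE 0.73, adjusted p = 8.20e-10). Among detoxification enzymes 9 were higher and 2 lower of 16, or 19 and 2 of 27 without the 790 min embryo. The glutathione transferase gst-27 had 167 to 358 CPM (median 202) in late embryos and none in early embryos, at least 637-fold higher (adjusted p = 5.94e-10). In contrast gst-7 was at 0 to 65.3 CPM (median 38.8) in late embryos and 266 to 844 CPM (median 559) in early embryos (log2 fold change -2.86, SE 0.53, adjusted p = 9.00e-05). Nuclear hormone receptors had 12 higher and 4 lower of 29 (median 1.20, -0.30 on the spike-in scale), and hedgehog-related genes 6 and 1 of 9. The counts without the 790 min embryo were 24 and 2 of 42 nuclear hormone receptors and 13 and 1 of 16 hedgehog-related genes. Apoptosis and autophagy genes were called no more often than genes at large, with 3 higher and 2 lower of 19 for apoptosis and 5 higher and 4 lower of 23 for autophagy (6 higher and 2 lower without the 790 min embryo). Lists with few tested members gave 6 lower of 15 F-box genes and 2 higher of 8 cuticle enzymes. Without the 790 min embryo 5 F-box genes were lower and 3 higher of 20, and 5 of 11 cuticle enzymes were higher. Without the 800 or the 840 min embryo 3 F-box genes were lower. Such lists also gave 6 higher of 8 dense core vesicle genes, 3 higher of 3 long intergenic noncoding RNAs and no call for the 1 tested gene of ciliated neurons (2 of 2 higher without the 790 min embryo).

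Of 4 tested hatching and larval glycan enzymes 3 were higher and 1 was lower. Those higher were the lysozymes lys-1 and lys-8 and the chitinase cht-3, which had means of 40.4 CPM in late embryos and 0.295 CPM in early embryos (log2 fold change 6.85, SE 0.97, adjusted p = 2.20e-06) and is named after its values were seen. The hatching protease gene hch-1 had no count in any late embryo, and 2.96 and 0.847 CPM in 2 of the 8 early embryos, while its median was 551 CPM at 300 to 390 min. Its 6 early counts make a summed level below the one that 3 counts stand for in the late group, so no fold is given. The chitinase gene cht-1 was at 0 to 15.1 CPM (median 1.33) in late embryos and 14.8 to 799.5 CPM (median 119) in early embryos (log2 fold change -4.59, SE 1.00, adjusted p = 5.31e-04), the member that fell, and its median was 3922 CPM at 110 to 190 min.

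The 15 largest rises among genes averaging 100 CPM or more in late embryos included 4 collagens: col-3 above, col-107, col-10 and col-130. Collagen col-10 had 265 to 2831 CPM (median 2105) in late embryos and 1 count over all early embryos, a ratio of 18381-fold (95% counting interval 3298 to 726109). Collagen col-107 had 179 to 3903 CPM (median 2351) in late embryos and 2 counts over all early embryos, a ratio of 10759.8-fold (95% counting interval 2978 to 88859). Collagen col-130 had 121 to 1373 CPM (median 574) in late embryos and none in early ones, at least 1744-fold higher. The ground-like gene grl-4 had 294 to 3044 CPM (median 820.0) in late embryos and 1 early count, a ratio of 11237-fold (95% counting interval 2016 to 443912). No role is given here for M60.4, which was at 968 to 24561 CPM (median 6515) in late embryos and 0 to 8.84 CPM (median 0) in early embryos (log2 fold change 13.18, SE 1.10, adjusted p = 6.38e-10). Y47D7A.13 was at 681 to 14106 CPM (median 5578) in late embryos and 0 to 11.0 CPM (median 0) in early embryos (log2 fold change 13.01, SE 1.03, adjusted p = 3.05e-10), and like M60.4 was close to 0 at the start. The gene tpan-1 was at 334 to 4732 CPM (median 3196) in late embryos and 0 to 1.77 CPM (median 0) in early embryos (log2 fold change 13.18, SE 0.81, adjusted p = 2.57e-11). Lines T03F1.11 and K07E1.1 had no early count and were at least 2183-fold and 1961-fold higher. The adjusted p was at most 3.28e-08 for these 15 genes, which include phat-5, hsp-12.2, myo-5, nlp-29 and fipr-4 above.

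Late embryos differed among themselves in some of these genes by more than 10-fold. M60.4 had 24561 and 12577 CPM at 810 and 830 min, against 5718, 2661 and 7312 CPM at 800, 820 and 840 min and 968 CPM at 790 min. Y47D7A.13 had 13095, 14106 and 7531 CPM at 800, 820 and 840 min, against 1440.3, 3624 and 681 CPM at 790, 810 and 830 min. Collagen col-130 had 1373, 859.8 and 899.5 CPM at 800, 820 and 840 min, against 133, 288 and 121 CPM at 790, 810 and 830 min. The gene grl-4 had 3044, 2913 and 992 CPM at 800, 820 and 840 min, against 328, 648 and 294 CPM at 790, 810 and 830 min. With 1 embryo a time, differences between neighbouring times cannot be told from differences between embryos.

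The 15 largest falls among genes averaging 100 CPM or more in early embryos included 4 genes with no late count. No late count was found for dsl-2, a Notch ligand of the DSL family, C17E7.9, clec-196 and F54D10.7, which were at least 58.5-fold, 135-fold, 44.3-fold and 105-fold lower (adjusted p = 3.90e-04, 1.11e-06, 9.58e-04 and 4.14e-06). The early values of dsl-2 ran from 7.15 to 932 CPM and those of clec-196 from 0 to 438 CPM, and for both the 2 highest were in the shallow embryos of numbers 97 and 71. C17E7.9 was steadier, at 33.3 to 252 CPM (median 100.0). Between both ends dsl-2 had a median of 1309 CPM at 20 to 100 min and clec-196 one of 1676 CPM at 110 to 190 min. Line F19H6.4 had 2 counts over the late embryos and 33.3 to 265 CPM (median 179) in early embryos, a ratio of summed levels, early over late, of 358-fold (95% counting interval 98.9 to 2957) (adjusted p = 2.25e-07). The small RNA cofactor gtsf-1 was at 0 to 9.18 CPM (median 0) in late embryos and 45.2 to 632 CPM (median 179) in early embryos (log2 fold change -5.08, SE 0.82, adjusted p = 1.51e-05). Lines F43G6.7, F56F11.4, Y45G5AM.7, M106.8, C41D11.9 and C17E7.12 had log2 fold changes of -5.34, -5.33, -4.99, -4.93, -4.88 and -4.88, all with falls that held, and mcm-6, crn-1 and mre-11 are given above.

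The 10 most abundant RNAs of each group shared no gene. In late embryos they were act-5, rps-15, har-1, M60.4, mlc-3, Y47D7A.13, col-160, nlp-24 and lines F56A4.2 and Y19D10A.9. Most of these were near 0 at the start, but har-1 was at 4644 to 10366 CPM (median 9050.5) in late embryos and 266 to 8481 CPM (median 1834) in early embryos (log2 fold change 2.51, SE 0.55, adjusted p = 5.60e-04). In early embryos they were pos-1, sip-1, cyb-3, clec-87, eef-1A.1, pfn-1, cpg-1, daf-41, vdac-1 and R05H5.3. The actin-binding profilin pfn-1 was at 151 to 766 CPM (median 318) in late embryos and 2516 to 12446 CPM (median 3519.8) in early embryos (log2 fold change -2.68, SE 0.42, adjusted p = 9.25e-06). Line R05H5.3 was at 99.6 to 484 CPM (median 151) in late embryos and 1629 to 6023 CPM (median 2561) in early embryos (log2 fold change -3.05, SE 0.41, adjusted p = 9.97e-07). The mitochondrial channel vdac-1 was abundant at both ends, at 3704 to 5215 CPM (median 4398) in late embryos and 2129.8 to 5197 CPM (median 3475) in early embryos, and passed the test on the TMM scale (log2 fold change 1.37, SE 0.34, adjusted p = 0.00207) without holding under every scaling. The co-chaperone gene daf-41 was at 365 to 1787 CPM (median 820.2) in late embryos and 1180.2 to 11861 CPM (median 2340.1) in early embryos and was not called (log2 fold change -0.97, SE 0.50, adjusted p = 0.112).

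Genes often used to normalise expression in this species did not share a direction, with 2 higher and 2 lower of 8 tested and a median of -0.04 (0.39 with relative log expression). The RNA polymerase subunit ama-1 was at 20.5 to 219 CPM (median 45.2) in late embryos and 98.6 to 188 CPM (median 136) in early embryos and was not called (log2 fold change -0.10, SE 0.44, adjusted p = 0.864). Neither was the transporter pmp-3, at 13.6 to 46.1 CPM (median 30.9) in late embryos and 0 to 129.6 CPM (median 78.7) in early embryos (log2 fold change -0.38, SE 0.53, adjusted p = 0.576), whose 95% interval was -1.48 to 0.72. The GTPase cdc-42 had 1 count over the late embryos and 0 to 66.6 CPM (median 26.6) in early embryos, a ratio of summed levels, early over late, of 129.7-fold (95% counting interval 23.1 to 5141) (adjusted p = 0.00108), and tba-1 fell as given above.

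The stages between place these differences in time. The ribosomal share had medians of 1.71% in early embryos, 2.73% at 20 to 100 min, 7.08% at 200 to 290 min, 11.8% at 300 to 390 min and 13.2% in late embryos. Maternal regulators took 2.75% in early embryos, 0.797% at 20 to 100 min and 0.124% at 110 to 190 min. Their later medians were 0.0867% at 300 to 390 min, 0.222% at 400 to 590 min, 0.141% at 600 to 780 min and 0.354% in late embryos, above the low point. DNA replication genes were at 1.45% in early embryos, 1.68% at 20 to 100 min, 1.58% at 110 to 190 min and 0.198% at 300 to 390 min, with 0.0588% at 600 to 780 min and 0.142% in late embryos. Proteasome genes were at 1.89% in early embryos, 0.509% at 110 to 190 min, 0.188% at 600 to 780 min and 0.281% in late embryos. Muscle genes were at 0.753% at 200 to 290 min and 3.12% at 400 to 590 min. Pharyngeal genes were at 0.149% at 400 to 590 min and 0.881% at 600 to 780 min. Epidermal antimicrobial peptides had a median of 0.0778% at 600 to 780 min, with single embryos there from 0.0328% to 1.32%, and 0.868% in late embryos. These medians are a description with no test, and all embryos after 420 min have numbers 1 to 50.

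**Figure D5:**
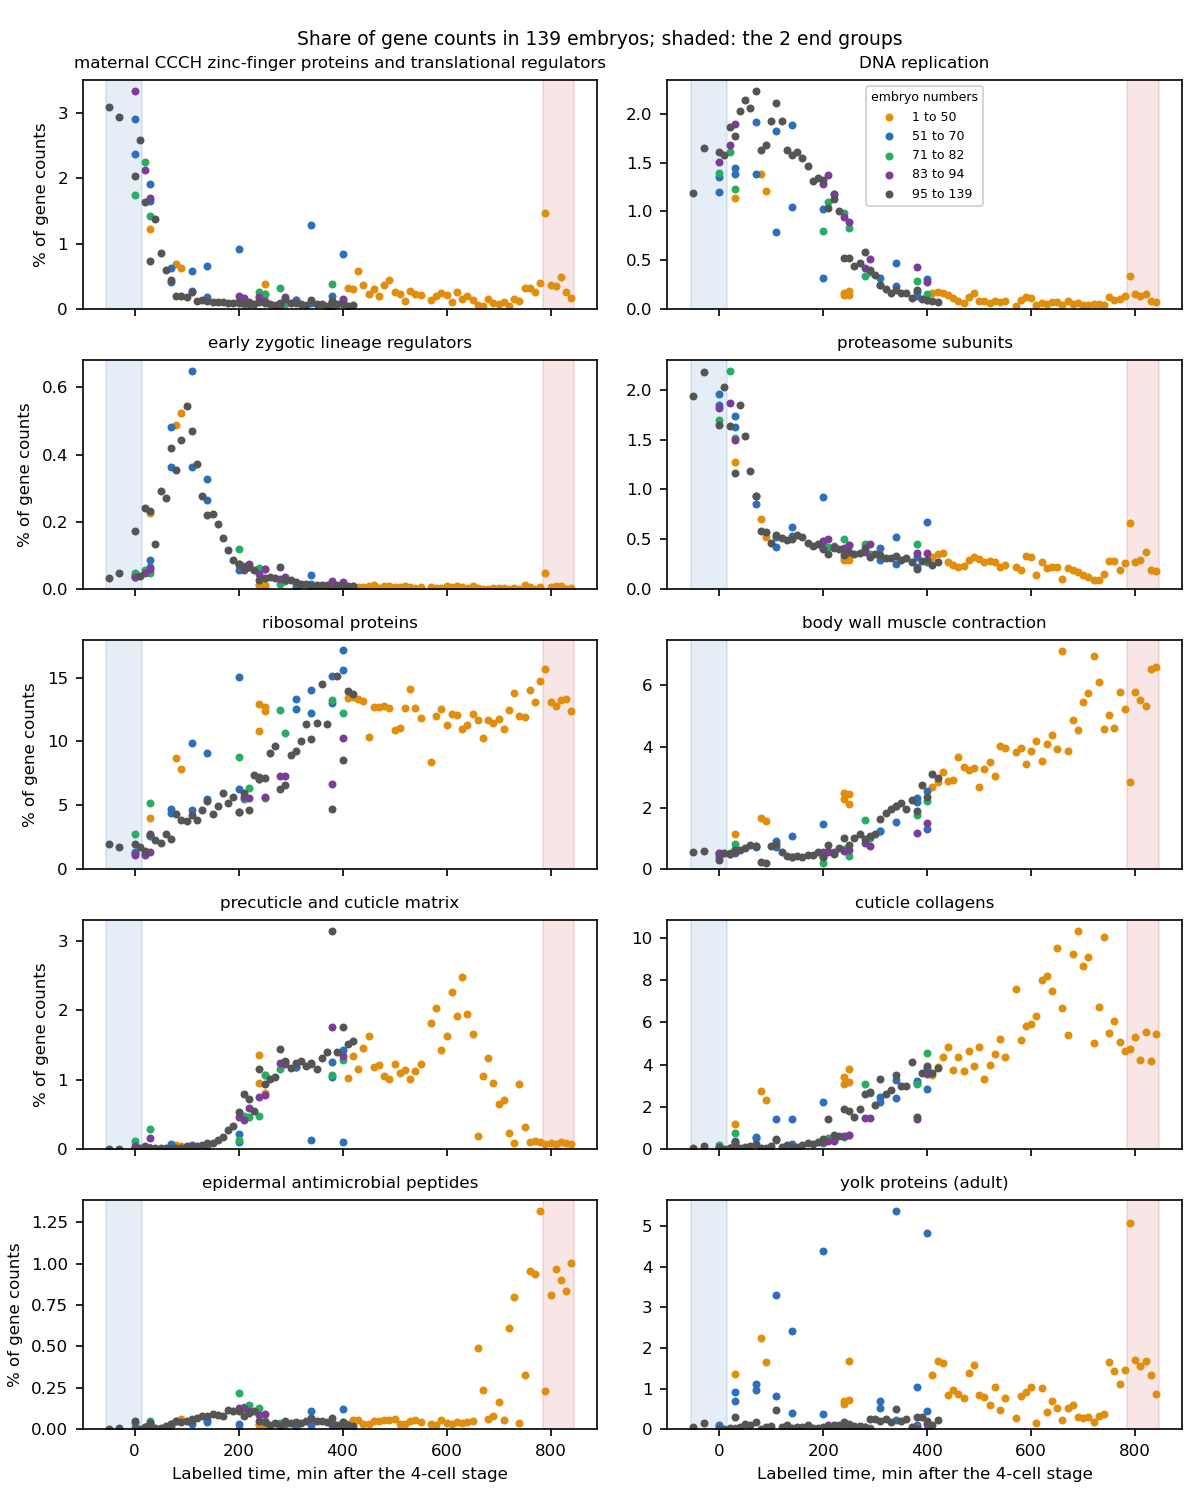
Share of gene counts (%) of 10 gene lists in each of the 139 embryos against labelled time in min after the 4-cell stage, coloured by block of embryo numbers, with the early (left) and late (right) groups shaded. By group median maternal and proteasome genes are highest in the early group and replication genes at 20 to 100 min, precuticle genes are high in the middle and low at both ends, and epidermal antimicrobial peptides are above 0.8% in the late embryos other than the 790 min embryo.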

How the data were processed

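The authors deposited raw gene counts of 139 embryos in 1 table, with 20687 gene lines, 92 spike-in RNAs and 5 counters that name no gene. The submitters' processing notes name CASAVA 1.8, Bowtie2 2.1.0 and HTSeq 0.5.4p3, and the genome build, strand setting and any use of molecular barcodes are not given in the sources used here. No unused column of per-embryo values was left in the table. Spike-ins and counters were kept out of library sizes, and reads that did not align made up 54.6% to 75.5% of a late embryo and 23.8% to 58.4% of an early embryo.

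Groups were taken from the labelled times. Counts were tested with edgeR 4.0.16 (quasi-likelihood, TMM factors, filterByExpr with a minimum count of 10, only the 14 embryos, R 4.3.3), with Benjamini-Hochberg adjustment over the 6113 genes tested. A call needed an adjusted p under 0.05 and a log2 fold change of at least 1 in size. The test was also run on counts simulated from the means and dispersions of these embryos, where 9 of 5913 unchanged genes were called. There 100 genes were altered 4-fold and 100 altered 16-fold, with no block or outlying embryo. In the data 49% of genes were called, so the simulation does not give the false calls of this comparison. Shares of counts were compared by an exact two-sided permutation test that went through every regrouping of the embryos (Python 3.11.15). For a gene with no count in a group, the fold is a bound at 3 counts over the summed counts of that group (0.332 CPM early, 0.712 CPM late). Ratios for genes with 1 to 3 counts carry a 95% counting interval, which like the floors covers counting error alone. Other scalings, filters and DESeq2 1.42.0, left-out embryos and a comparison within numbers 1 to 50 were alternatives.

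The 14 embryos follow from their labelled times, but this comparison, the 49 gene lists and the tests were chosen with earlier results of these data known. Named genes came from a rule (232 genes, some left out of the text for length): the 15 largest changes each way at a mean of 100 CPM or more, the 2 largest and 2 most abundant called genes of a list, the 10 most abundant RNAs of a group, fixed markers, and members called against their list. Gene symbols and chromosomes came from Ensembl release 115 or, for lines not found there, from RefSeq. In these sources 20083 lines matched 1 gene, and no coordinates were used. Near-identical copies (actin, yolk protein, gpd and clec-209 genes) may have shared reads.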

Additional observations from a re-analysis of the deposited data

Results flagged for a closer look

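Single embryos were looked for that lay apart from the rest of their group by Dixon's gap test at the 95% level, over 156 named genes and 7 values per embryo. Of 326 groups checked 74 were marked. The level of the test holds for independent values with a normal spread. Some genes had no count in the other embryos of a group, where a single count could be marked, and the groups share embryos. The number of marks therefore cannot be set against a rate from chance. The 790 min embryo accounted for 29 of the marked groups, the shallow embryos of numbers 97 and 71 for 11 and 5.

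The 790 min embryo was marked for 26 genes, as the lowest or the highest of the late embryos. Low levels were 23.0, 0, 265, 179, 645, 1625 and 51.9 CPM of K07E1.1, cki-1, col-10, col-107, col-3, cox-7C and fipr-4. It also held only 40.3, 248, 259, 28.8, 1337, 46.1 and 5.76 CPM of hsp-12.2, ifb-2, iff-2, myo-5, nlp-24, nlp-29 and pha-4. To these add 80.7, 0, 230.4, 334 and 219 CPM of phat-5, rab-3, tni-4, tpan-1 and vab-10. High levels were 1739.9, 542, 92.2, 133, 17.3, 156 and 4361 CPM of cpg-1, cyb-1, dpy-7, gpd-4, gpr-1, inx-22 and pos-1. Its ribosomal protein share of 15.7%, its yolk share of 5.07% and its 8.49 spike-in counts per 1000 gene counts were the highest of the late embryos.

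Other late embryos were marked mostly for a few counts of a gene absent from the rest. At 800 min the level was 10.7 CPM for C17E7.12. At 810 min the level was 7.98 CPM for M106.8 and 1.14 CPM for cdc-42. At 820 min the level was 4.51 CPM for F19H6.4. At 830 min the level was 4.59 CPM for F43G6.7 and 9.18 CPM for gtsf-1. At 840 min the level was 7.55 CPM for F56F11.4, 7.55 CPM for tbx-9 and 1693 CPM for unc-54. The unc-54 level was the lowest of the late group, and the others were the highest.

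In early embryos many marks were 1 or a few counts of a gene of late embryos. The 0 min embryo of number 51 held the highest level of its group for egl-21, hch-1, sbt-1 and vha-5, at 16.3, 2.96, 25.2 and 31.9 CPM. Embryo 52 (0 min) held the lowest level of its group for ceh-83, crn-1, hmp-2 and utx-1, at 0, 80.7, 53.1 and 0 CPM. The 0 min embryo of number 71 held the highest level of its group for dpy-7, elt-2, mec-12, myo-2 and myo-3, at 43.8, 11.0, 11.0, 21.9 and 21.9 CPM. The 0 min embryo of number 83 held the highest level of its group for col-107, ges-1 and tni-4, at 3.14, 3.14 and 12.6 CPM. The -50 min embryo of number 95 held the highest level of its group for col-10, grl-4, nlp-29 and unc-13, at 0.453, 0.453, 0.453 and 1.36 CPM. Embryo 96 (-30 min) held the highest level of its group for M60.4, flp-12, lys-1, pck-1 and tpan-1, at 8.84, 1.18, 2.95, 1.77 and 1.77 CPM. The 0 min embryo of number 97 held the highest level of its group for inx-22, npp-22, par-2, pfn-1 and rnr-1, at 865, 1165, 499, 12446 and 2263 CPM. The 0 min embryo of number 97 held the lowest level of its group for C41D11.9, M106.8, act-2, pas-5, snb-1 and tbb-2, at 33.3, 0, 765, 99.8, 99.8 and 1697 CPM.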

How the results depend on the processing

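No paired analysis was possible because the replicate numbers were given in accession order and pair no embryos. Of the 151 named genes tested, 3 reversed on the spike-in scale (eef-1A.1 to -1.45, par-5 to -0.023 and vdac-1 to -0.041, log2) and 3 of 140 within numbers 1 to 50 (hmp-2 to 0.22, oma-2 to 0.57 and perm-4 to -0.33), where 38 others lost their call. The 1458 genes higher of 6113 tested became 4326 of 14325 fitted with DESeq2 and 6329 of 14325 with no filter on low counts. They became 834 of 3491 with a minimum of 50 counts and 219 of 665 with embryos thinned to equal depth. With all 139 embryos fitted 4214 of 10936 were higher, and 2260 of 6967 against the early embryos of numbers 95 to 98 alone. Without the 790 min embryo under relative log expression 2381 of 6829 were higher. The 1535 genes lower became 991 with relative log expression, 3042 with total counts, 3270 with spike-in scaling, 990 with a minimum of 50 counts, 248 after thinning, 821 against early embryos labelled 0 min, 826 against those outside numbers 95 to 98, 560 within numbers 1 to 50 and 862 at a fold of 4. Leaving out 1 embryo gave 1375 to 2400 genes higher, with 2400 without the 790 min embryo, and 1003 to 1604 lower, with 1003 without the 840 min embryo. The cause was not tested, though stricter filters and thinning test fewer genes by construction. DESeq2, the run with no filter and the fit of all embryos took in more genes, so their counts are not over the same genes. The yolk share difference was 1.98 percentage points and 0.282 within numbers 1 to 50 (exact permutation p = 0.881). The mitochondrial share difference of 0.299 ranged from 0.234 to 0.396 when 1 embryo was left out, and passed the threshold without embryo 71 (0.396, exact permutation p = 0.0163) or embryo 97 (0.370, exact permutation p = 0.0437). The X-linked, ribosomal and top-50 shares kept their direction and their side of the threshold under each alternative run. On simulated counts with these library sizes and dispersions the test called 49 of 100 genes altered 4-fold and 98 of 100 altered 16-fold. In that simulation a change near 4-fold was thus often not detected at this depth and spread between embryos. It held no block and no outlying embryo, so it does not give the rate of detection in the data.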
